A study of Mus musculus with 32 samples.

Results

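The cytosolic ribosomal protein genes were taken as every gene name in the scanner files that starts with Rpl or Rps and goes on with a number, together with Rplp0, Rplp1, Rplp2 and Rpsa and without the Rps6k kinases. This gave 82 of the 28787 gene names on the array, and 82 of 82 passed the filter on dim probes that left 20552 genes for testing. Of the 82, 76 encode core subunits (45 of the large and 31 of the small subunit), and 5 are paralogues of core genes: Rpl3l, Rpl7l1, Rpl22l1, Rpl36al and Rps27l. The remaining one, Rps19bp1, matched by name only: its product binds Rps19 and is not part of the ribosome. Probes for Rplp0, Rpl34 and Rpl39l that the files list under older names (Arbp, 1100001I22Rik and 4930517K11Rik) fell outside the name rule.

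The study measured RNA from thymocytes of C57Bl/6 mice aged 6 weeks on 32 single-colour Agilent arrays. The P72 and R72 mice carry the proline and the arginine form of codon 72 of p53; each line was sampled untreated (0 h) and 2 h and 4 h after 5 Gy of gamma rays, with 4 arrays per time point from 4 independent experiments. Mice with p53 (p53+/+) and without it (p53-/-) gave 2 untreated arrays and 1 array at each of 2 h and 4 h per genotype, so those irradiated arrays have no replicate at their own time. Every array held RNA pooled from 1 male and 1 female mouse, and the labels used here do not say how the P72 and R72 lines were made or which part of p53 the p53-/- mice lack. Because whole thymocyte samples were measured, fewer cells of a type and less RNA per cell cannot be told apart.

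The ribosome joins amino acids into protein, and each of its subunits is assembled in the nucleolus from ribosomal RNA and many proteins. Mammalian ribosomal protein messenger RNAs usually start at a cytosine followed by a run of pyrimidines, the 5′ terminal oligopyrimidine (TOP) tract, through which mTOR controls their translation. The pathway meets p53 at several points: free Rpl5 and Rpl11, with 5S ribosomal RNA, bind and restrain the ubiquitin ligase Mdm2, other ribosomal proteins bind it too, and RPS27L is a known p53 target gene in human cells. Thymocytes die readily by p53-dependent apoptosis after ionising radiation.

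The sequences that bear on the results are those of Rps27l, the member with the clearest induction, of its close relative Rps27, and of the core genes Rps19 and Rpl14. The array's Rps27l probe is 60 bases long. Its position in the files is chr9:66979145-66980835 (mm7, plus strand), a span longer than the probe, so that it crosses an intron. The longest run it shares with the Rps27 probe is 6 bases, printed in capitals.
Rps27l probe: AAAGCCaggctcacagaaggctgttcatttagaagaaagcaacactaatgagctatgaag
The promoters below come from RefSeq (GRCm38.p6) and run from 60 bases before the annotated start to 20 bases from it on, with the start at base 61. Capitals mark the longest run of C and T that touches the 5 bases on either side of the start.
Rps27l, chr9:66946026-66946105, plus strand: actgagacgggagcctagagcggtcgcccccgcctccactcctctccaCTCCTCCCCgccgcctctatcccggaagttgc
Rps27, chr3:90213629-90213708, minus strand: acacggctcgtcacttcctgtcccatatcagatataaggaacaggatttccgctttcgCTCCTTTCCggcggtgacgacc
Rps19, chr7:24884532-24884611, plus strand: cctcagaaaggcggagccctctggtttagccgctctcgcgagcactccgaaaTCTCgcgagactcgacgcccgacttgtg
Rpl14, chr9:120571457-120571536, plus strand: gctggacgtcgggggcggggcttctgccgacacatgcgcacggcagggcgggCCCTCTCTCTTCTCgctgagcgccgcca
The Rps27l run of 9 bases ends before the start, whereas the Rps27 start lies in its run of 9 bases and the Rpl14 start in its run of 14. The Rps19 run has 4 bases and ends before the start. RefSeq lists a second Rps27l start, whose window (chr9:66946353-66946432) has a longest run of 4 bases, and 2 further Rps19 starts with runs of 4 bases and 1 base. RefSeq start sites are single annotated positions, so the run was counted both at the start and near it. Of the 61 members with a promoter in the table, 13 (21.3%) had a C at the start followed by at least 4 further pyrimidines, against 3.01% of 27025 genes. Within 5 bases of the start, 28 (45.9%) had such a run, against 21.2% of all genes. From 250 bases before the start to 50 after it, the p53 response element (a pair of half-sites of the p53 consensus with at most 13 bases between them, searched on both strands) was found in 0 of the 61 member promoters and in 0.074% of all promoters. TATAAA stood in 1 member promoter (1.64%) and in 2.78% of all. A match is a description of letters only.

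Levels below are log2 signals minus the array's own 75th percentile, so that 0 is a probe at that percentile, and a change is a difference of such levels. A gene is called where its adjusted p (limma, Benjamini-Hochberg over all genes tested) is below 0.05. Over the 32 arrays this percentile lay at signals of 260 to 1017, and the share of probes detected well above background was 52.2% to 71.2%. Both highest values came from R72 replicate 4 at 2 h, and the next highest percentile signal was 745. The low Rpl21 value and the Rpl14 and Rpl7l1 values in the untreated range at 2 h, given below, come from this array. Of the chosen member probes, 81 of 82 were well above background on 32 of 32 arrays, 0 member values were saturated, and 82% of member values came from the low-gain scan that the software uses for bright spots. The spread of all genes on an array narrowed with time after irradiation: the SD over genes was 3.55 to 3.66 on the P72 arrays at 0 h and 2.96 to 3.18 at 4 h, 3.47 to 3.64 and 2.99 to 3.22 in R72, and 3.65, 3.61 and 3.57 in p53-/- at 0 h (mean), 2 h and 4 h. The 8 double-positive thymocyte markers were measured on every array, with a summed log2 level of 9.56 to 10.18. Neutrophil markers rose in P72 at 4 h (7 of 7 tested, median change 1.63) and 1 of 7 rose in R72 (median 0.45); the summed level was 5.07 to 5.89 at 0 h and 6.08 to 7.12 at 4 h in P72, and 6.02 to 6.37 and 6.01 to 7.04 in R72. Of all genes, 36.7% were called up in P72 and 29.7% in R72 at 4 h. Of 8 thymic epithelial markers, 6 rose in P72 at 4 h and 3 in R72, and the same numbers of 8 macrophage markers did. For 8 dendritic cell markers the numbers were 5 and 4. Of the 8 double-positive markers, 2 rose and 2 fell in P72 at 4 h, and 2 rose and 1 fell in R72. Of 7 B cell markers, 1 rose and 1 fell in each line, and of 5 erythroid markers 2 rose in P72 and 1 in R72. At 4 h, 19.5% of all genes were called down in P72 and 14.7% in R72. The part of these cell types in the results below was not tested. On untreated replicates 1 and 2, the summed neutrophil level was 4.83 and 4.80 in p53+/+ and 5.22 and 5.22 in p53-/-. The summed double-positive level was 9.77 and 9.98 in p53+/+ and 9.82 and 10.02 in p53-/-. Whether these arrays share 1 RNA pool was not tested. Cdkn1a, the p53 target that blocks cyclin-dependent kinases, rose by 4.49 in P72 and 3.70 in R72 at 4 h and by 4.54 in p53+/+. In p53-/- its change was 1.00 (adjusted p = 0.167). The Trp53 probe did not separate untreated p53+/+ from p53-/- (difference 0.24, adjusted p = 0.802), and since the deleted part is not given it checks nothing.

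The ribosomal protein genes had a smaller median spread over the arrays than all genes tested. Their median SD over the 32 arrays was 0.173, against 0.351 over all genes tested, and 74 of 82 had an SD below 0.3. They were also bright: their median level lay at percentile 99.5 of all genes tested, and 75 of 82 lay above percentile 90. No set of genes of like level was compared, so whether level accounts for the smaller SD was not tested. Within a group of 4 arrays the median member SD was 0.156. The median correlation of a member with the median of the other members over the 32 arrays was 0.539, as a description of arrays that share one scaling, and 38 members lay below 0.5. The median member level was 7.11 ± 0.15, 7.08 ± 0.12 and 7.11 ± 0.14 (SD, n = 4) at 0, 2 and 4 h in P72, and 7.14 ± 0.14, 7.0 ± 0.02 and 7.08 ± 0.06 in R72. It was 7.05 at 0 h (mean of 2 arrays), 7.10 at 2 h and 7.15 at 4 h in p53+/+, and 7.02, 7.13 and 6.99 in p53-/-.

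Most members moved little after irradiation, and the called members were a smaller share than among all genes in every comparison of irradiated with untreated P72, R72 or p53+/+ arrays except R72 at 2 h. In P72 at 2 h, 1 member rose and 2 fell (3.66%), against 14.5% of all genes called (9.91% up and 4.61% down). In P72 at 4 h, 4 rose and 12 fell (19.5%), against 56.2% of all genes (36.7% up and 19.5% down). In R72 at 2 h, 1 rose and 11 fell (14.6%), against 12.8% (6.42% up and 6.35% down). In R72 at 4 h, 3 rose and 13 fell (19.5%), against 44.4% (29.7% up and 14.7% down). Changes stayed within 0.25 of 0 for 76 of 82 members in P72 at 2 h, 62 at 4 h, 56 in R72 at 2 h and 59 at 4 h. The R72 counts rested on single arrays more than the P72 ones. At 2 h, 5, 4 and 7 members were called without replicate 2, 3 or 4 at 0 h, and 6 without replicate 3 at 2 h. At 4 h, 10 and 7 were called without replicate 3 or 4 at 0 h, and 8 without replicate 2 at 4 h. The 2 h and 4 h comparisons of a line share its 0 h arrays and are therefore not independent of each other.

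**Figure D1:**
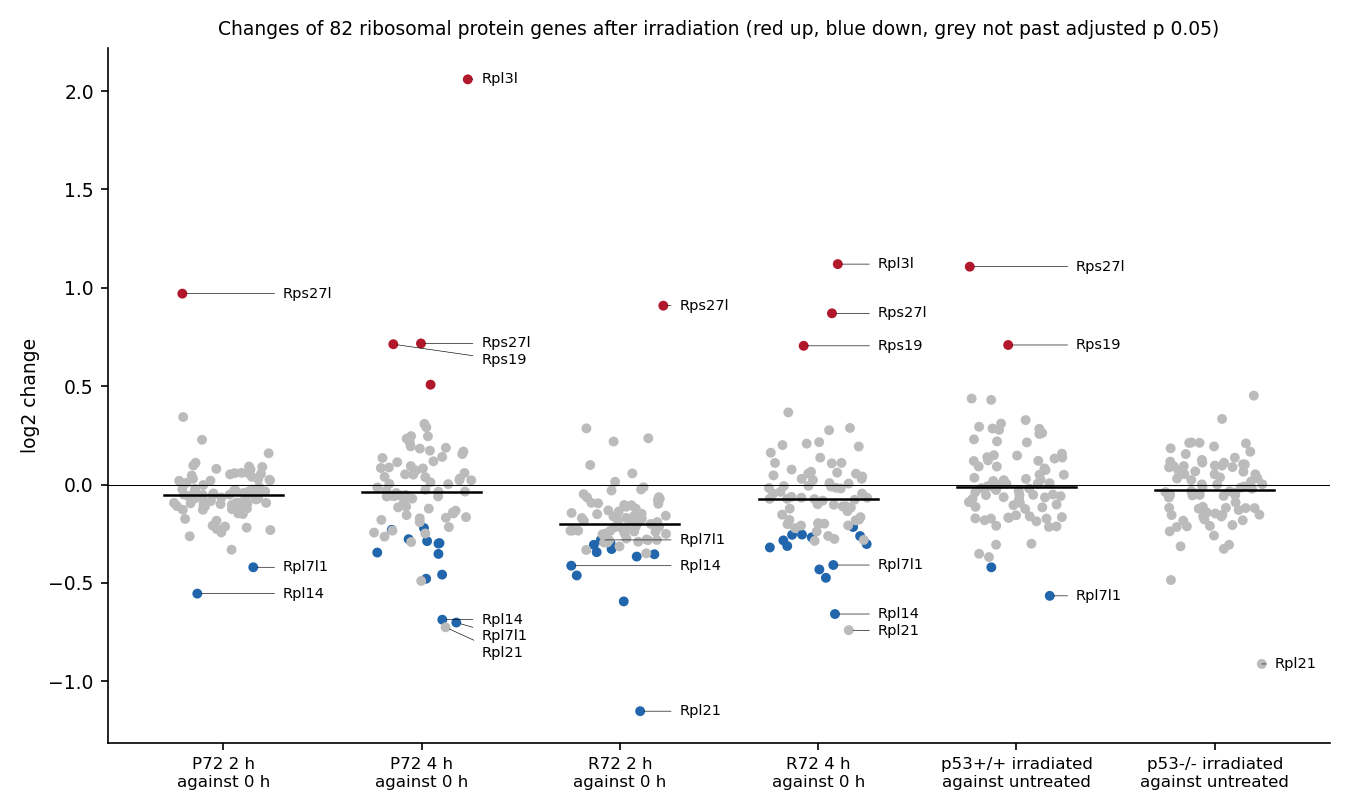
Log2 change (vertical axis) of each of the 82 ribosomal protein genes in 6 comparisons of irradiated with untreated thymocytes; each point is a gene, red if called up, blue if called down and grey otherwise, and the black line is the median. Most points lie close to 0, while Rps27l is raised wherever p53 is present, with changes of 0.97 and 0.72 in P72, 0.91 and 0.87 in R72 and 1.11 in p53+/+, and sits at -0.02 in p53-/-.

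**Figure D2:**
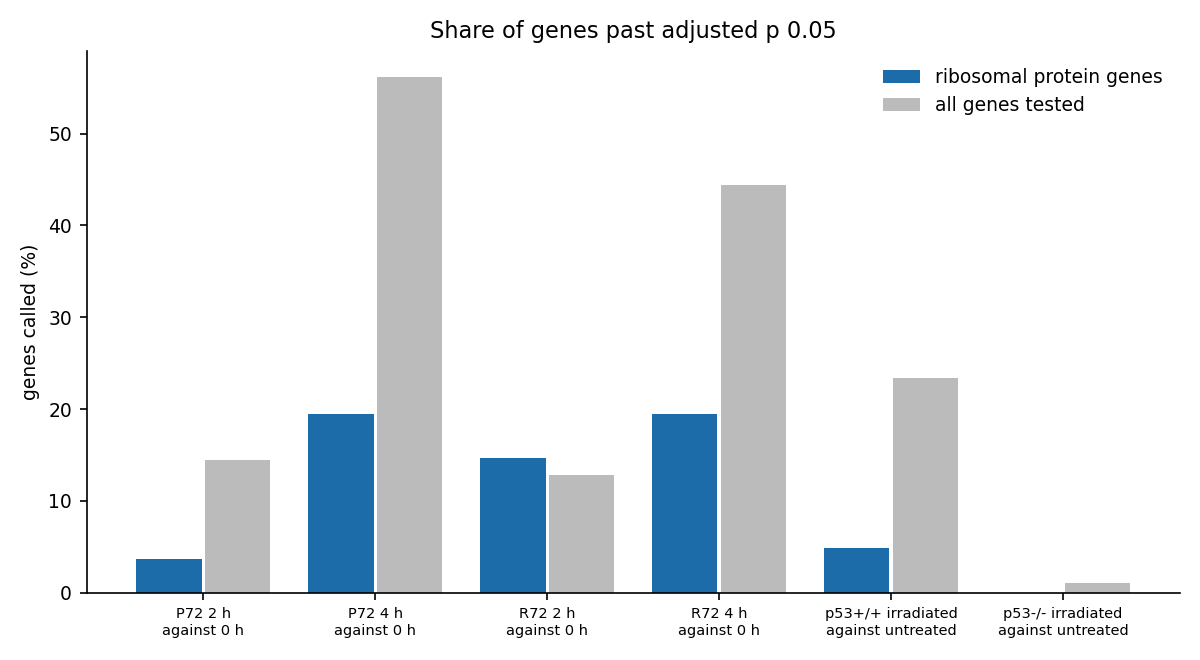
Percent of genes past adjusted p 0.05, in either direction, among the 82 ribosomal protein genes (blue bars) and among all 20552 genes tested (grey bars) in the same 6 comparisons. At 4 h the ribosomal protein bars stand at 19.5% in both lines, against 56.2% and 44.4% of all genes, and in p53-/- 0 members were called against 1.06% of all genes.

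Rps27l, the paralogue of the small-subunit gene Rps27 whose product also binds Mdm2, rose after irradiation in every line with p53. In P72 its log2 levels on replicates 1 to 4 were 5.28, 5.43, 5.50 and 5.60 at 0 h, 6.25, 6.56, 6.38 and 6.50 at 2 h, and 6.00, 6.08, 6.27 and 6.33 at 4 h. In R72 they were 5.19, 5.33, 5.33 and 5.43 at 0 h, 6.26, 6.17, 6.13 and 6.36 at 2 h, and 6.25, 6.15, 6.11 and 6.26 at 4 h. In both lines each irradiated array lay above each untreated one. The change was 0.97 ± 0.09 (SE) in P72 at 2 h (1.96-fold, adjusted p = 2.61e-07) and 0.72 ± 0.09 at 4 h (1.64-fold, adjusted p = 2.99e-06). In R72 it was 0.91 ± 0.09 at 2 h (1.88-fold, adjusted p = 8.27e-07) and 0.87 ± 0.09 at 4 h (1.83-fold, adjusted p = 6.4e-07). From 2 h to 4 h the level fell by 0.25 in P72 (adjusted p = 0.0415), while the change of -0.04 in R72 was not called (adjusted p = 0.803). The P72 call was lost without replicate 2 at 2 h or replicate 1 or 2 at 4 h, and it did not hold under each of the 4 scalings. The P72 response minus the R72 response was 0.06 at 2 h (95% interval -0.21 to 0.33) and -0.15 at 4 h (-0.43 to 0.12), neither of them called. Within single slides that held both time points, the change was 0.83 and 0.89 in P72 at 2 h, 0.79 to 1.07 in R72 at 2 h, 0.65 and 0.72 in P72 at 4 h, and 0.75 and 0.87 in R72 at 4 h. The P72 rise at 4 h depends on the scaling: with arrays centred on their median it was 0.11 and not called, in a setting where the median of all genes moved to -0.49.

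Of all members, this gene alone was called to respond differently in p53+/+ and p53-/-. In p53+/+ the Rps27l level was 5.21 and 5.38 on the untreated arrays, 6.48 at 2 h and 6.32 at 4 h. In p53-/- it was 5.31 and 5.30 untreated, 5.44 at 2 h and 5.12 at 4 h. The irradiated p53+/+ arrays thus lay above all others of these genotypes, and the p53-/- arrays overlapped the untreated p53+/+ ones. The irradiated arrays of p53+/+ and of p53-/- lay on different slides. The change, with the 2 h and 4 h arrays averaged, was 1.11 ± 0.13 in p53+/+ (2.15-fold, adjusted p = 1.8e-06) and -0.02 ± 0.13 in p53-/- (adjusted p = 0.98, 95% interval -0.28 to 0.24). The difference of the responses was 1.13 ± 0.18 (95% interval 0.76 to 1.5, adjusted p = 0.000379), and Rps27l was the only member called in that test, in which 5.32% of all genes were called (3.17% up). Without the p53+/+ array at 2 h, 2 members were called. Rps27l was called there, and in the p53+/+ response, under each of the 4 scalings tried.

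Rps27 itself, the core small-subunit protein with which Rps27l shares most of its sequence, was not called at 2 h or 4 h against 0 h in either line. In P72 its levels were 7.96, 8.23, 8.28 and 8.32 at 0 h, 8.11, 8.33, 8.11 and 8.47 at 2 h, and 8.13, 8.46, 8.46 and 8.41 at 4 h. The R72 levels were 8.17, 8.07, 8.26 and 8.16 at 0 h, 8.18, 8.11, 8.01 and 7.81 at 2 h, and 8.39, 8.39, 8.28 and 8.23 at 4 h. The groups overlapped except that 3 of 4 R72 arrays at 4 h lay above the highest at 0 h. Its change against 0 h was 0.05 and 0.17 in P72 and -0.14 and 0.16 in R72, and in R72 it rose by 0.30 from 2 h to 4 h (adjusted p = 0.0478), a call that was lost with the replicate number as a block and whose sign turned under other scalings. In p53+/+ its change was 0.21 and in p53-/- -0.21, neither of them called. In p53+/+ it stood at 7.89 and 8.09 untreated, 8.11 at 2 h and 8.30 at 4 h. In p53-/- it stood at 7.95 and 8.13 untreated, 7.80 at 2 h and 7.87 at 4 h. The irradiated arrays thus lay above the untreated ones in p53+/+ and below them in p53-/-.

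**Figure D3:**
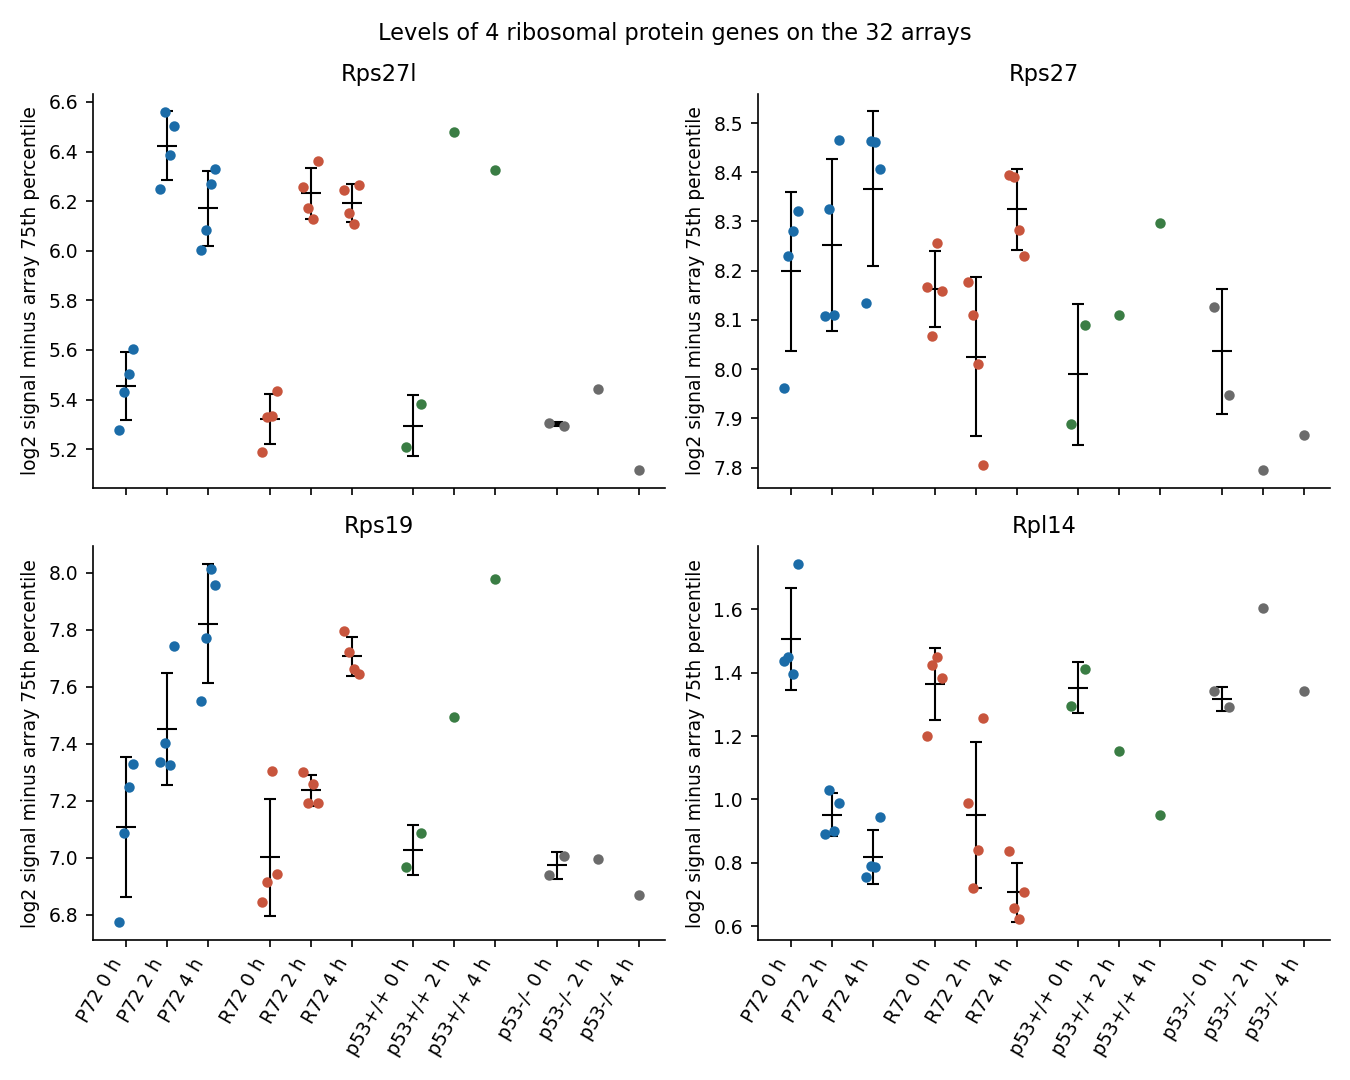
Log2 signal minus the array's 75th percentile (vertical axes, each with its own range) of Rps27l, Rps27, Rps19 and Rpl14 on the 32 arrays by genotype and time; points are arrays, and black bars are mean ± SD where a group has more than 1 array. Rps27l is higher on all irradiated P72, R72 and p53+/+ arrays than on any untreated array. Rps27 overlaps between times in P72 and R72, while its irradiated arrays lie above the untreated ones in p53+/+ and below them in p53-/-. Rps19 has its highest mean at 4 h except in p53-/-, and Rpl14 is lower at 4 h than at 0 h in P72, R72 and p53+/+.

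At 4 h, 56.2% of all genes were called in P72 and 44.4% in R72. Among the 31 core small-subunit genes, 1 rose and 1 fell in P72 at 4 h (6.45%), and 1 rose and 3 fell in R72 (12.9%). The one that rose in both was Rps19, which is needed for maturation of the 18S ribosomal RNA and is the gene mutated most often in Diamond-Blackfan anaemia. Its levels in P72 were 6.77, 7.09, 7.25 and 7.33 at 0 h, 7.34, 7.40, 7.33 and 7.74 at 2 h, and 7.55, 7.77, 8.01 and 7.96 at 4 h. R72 arrays gave 6.85, 6.91, 7.30 and 6.94 at 0 h, 7.30, 7.19, 7.26 and 7.19 at 2 h, and 7.79, 7.72, 7.66 and 7.64 at 4 h. At 4 h no array of either line overlapped its untreated group. The change at 4 h was 0.71 ± 0.13 in P72 (adjusted p = 0.0001) and 0.71 ± 0.13 in R72 (adjusted p = 0.00019), and at 2 h it was 0.34 (adjusted p = 0.0772) and 0.24 (adjusted p = 0.236). In p53+/+ Rps19 stood at 6.97 and 7.09 untreated, 7.49 at 2 h and 7.98 at 4 h, a rise of 0.71 (adjusted p = 0.00562). In p53-/- it stood at 6.94 and 7.01 untreated, 6.99 at 2 h and 6.87 at 4 h, and the difference of the responses, 0.75 ± 0.24, was not called (adjusted p = 0.0756). The other Rps19 probes gave changes of 1.25 and 1.39 in P72 at 4 h. One of them, on a different part of the gene, gave 0.97 in p53-/- (adjusted p = 0.098 among all probes), where the chosen probe gave -0.04. The size of the Rps19 change depended on the scaling: with median centring it was 0.10 in P72 and 0.23 in R72 at 4 h, and with the authors' deposited value table it was 0.40 in P72, and those 3 values were not called.

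Other small-subunit genes changed less. Rps2, a 40S protein near the entry of the messenger RNA channel, fell in R72 by 0.46 at 2 h (adjusted p = 0.0129) and by 0.32 at 4 h (adjusted p = 0.0313). Its R72 levels were 7.53, 7.67, 8.0 and 7.85 at 0 h and 7.48, 7.43, 7.56 and 7.31 at 4 h, which overlapped on 1 array; in P72 its 4 h change was -0.24 (adjusted p = 0.0818). Rpsa, a 40S protein also known as the laminin receptor, fell by 0.29 in P72 (adjusted p = 0.0312) and by 0.31 in R72 (adjusted p = 0.0256) at 4 h, and its second probe gave -1.08 and -0.99. Neither Rpsa call held under quantile normalization (-0.076 and -0.14) or in the authors' deposited values (-0.12 in both). The P72 call was also lost without replicate 1, 2 or 3 at 0 h or replicate 1, 2 or 4 at 4 h, and the R72 call without replicate 2 or 4 at 0 h or replicate 2 at 4 h. Rps25, which sits near the exit site, fell by 0.35 in R72 at 2 h, and Rps10 fell by 0.28 in R72 at 4 h. Between 2 h and 4 h in R72, 8 members rose and 0 fell, against 21.1% of all genes called (16.7% up and 4.41% down): Rpl3l, Rplp1, Rps27a, Rps12, Rps7, Rps19, Rps4x and Rps27, with rises of 1.02, 0.57, 0.51, 0.49, 0.47, 0.47, 0.33 and 0.30. Several of them, such as Rps7 (7.62, 7.60, 7.18 and 7.08 at 2 h against 7.77, 7.90, 7.88 and 7.82 at 4 h) and Rps27a, the ubiquitin fusion gene (7.0, 7.0, 6.46 and 6.18 at 2 h), were lowest on replicates 3 and 4 at 2 h. In P72 over the same interval 2 members rose, Rpl3l and Rps19, and 2 fell, Rps27l and Rpl7l1, against 31.9% of all genes called (22.3% up and 9.67% down). Between 2 h and 4 h in R72, 2 members were called without replicate 4 at 2 h or without replicate 2 at 4 h, 5 without replicate 3 at 2 h or replicate 1 at 4 h, and 0 under each of the 4 scalings at once. In P72 over this interval, 1 member was called without replicate 2 at 2 h or replicate 2 at 4 h and 2 without replicate 3 at 2 h.

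Of the 45 core large-subunit genes, 1 rose and 7 fell in P72 at 4 h, and 0 rose and 7 fell in R72 at either time. In P72 this was 17.8% called, against 56.2% of all genes (19.5% down). In R72 it was 15.6% at either time, against 12.8% of all genes at 2 h (6.35% down) and 44.4% at 4 h (14.7% down). The clearest fall was that of Rpl14, a protein on the solvent side of the 60S subunit. Its mean level over the arrays, 1.11, was the lowest of the core genes, against a median of 7.04 over the members. Its levels in P72 were 1.44, 1.45, 1.39 and 1.74 at 0 h, 0.89, 1.03, 0.90 and 0.99 at 2 h, and 0.75, 0.79, 0.79 and 0.94 at 4 h. In R72 they were 1.2, 1.42, 1.45 and 1.38 at 0 h, 0.99, 0.72, 0.84 and 1.26 at 2 h, and 0.84, 0.66, 0.62 and 0.71 at 4 h. The groups at 4 h did not overlap with 0 h in either line, and at 2 h only 1 R72 array reached into the untreated range. Rpl14 fell by 0.55 ± 0.10 (adjusted p = 0.000925) and 0.69 ± 0.10 (adjusted p = 1.37e-05) in P72 at 2 h and 4 h, and by 0.41 ± 0.10 (adjusted p = 0.011) and 0.66 ± 0.10 (adjusted p = 4.16e-05) in R72. It was the only member that fell at both times, in both lines, under each of the 4 scalings tried. In p53+/+ it stood at 1.30 and 1.41 untreated, 1.15 at 2 h and 0.95 at 4 h, a change of -0.30 that was not called (adjusted p = 0.114). In p53-/- it stood at 1.34 and 1.29 untreated, 1.60 at 2 h and 1.34 at 4 h, and the difference of the responses, -0.46, was not called (adjusted p = 0.171).

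Rpl22, a 60S protein that alpha-beta T cells need during their development, fell in both lines at 4 h and in R72 already at 2 h. Its levels at 0 h and 4 h were 6.85, 7.10, 7.09 and 7.16 against 6.57, 6.67, 6.88 and 6.89 in P72, and 6.89, 7.05, 7.05 and 7.09 against 6.78, 6.72, 6.75 and 6.77 in R72. The R72 groups did not overlap, and the P72 groups overlapped through replicate 1 at 0 h. It fell by 0.30 in P72 (adjusted p = 0.00718) and 0.26 in R72 (adjusted p = 0.0207) at 4 h, and by 0.31 in R72 at 2 h (adjusted p = 0.0278). Rpl15 fell by 0.23 in P72 (adjusted p = 0.0352) and 0.27 in R72 (adjusted p = 0.0201) at 4 h and by 0.30 in R72 at 2 h (adjusted p = 0.0339). Rpl3, which shapes the peptidyl transferase centre, fell by 0.28 and 0.25 at 4 h in P72 and R72, Rpl31 by 0.35 and 0.26, and Rpl36a by 0.22 in both. Rpl13a, which can also act in translational silencing outside the ribosome, fell by 0.30 in P72, and Rpl27a fell by 0.30 in R72. At 2 h in R72, Rpl36a, Rpl6 and Rpl39 fell as well, by 0.33, 0.34 and 0.37.

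Rpl21 showed the largest drop of a core gene in R72 at 2 h, and its call there rested on 1 array. Its levels were 2.93, 3.09, 3.49 and 2.97 at 0 h and 2.82, 2.65, 2.20 and 0.20 at 2 h. The change was -1.15 ± 0.37 (adjusted p = 0.0465), and -0.56, not called, without replicate 4. On 2.69, 2.39, 2.56 and 1.88 at 4 h the change of -0.74 was not called (adjusted p = 0.114). Each irradiated R72 array lay below each untreated one. In P72 the levels were 3.28, 3.22, 3.58 and 3.45 at 0 h and 2.38, 2.36, 2.87 and 3.01 at 4 h, with no overlap. That change, -0.73, was the largest fall of a member there but was not called. In p53-/- it went from 2.15 and 2.10 to 1.29 at 2 h and 1.14 at 4 h. This change, -0.91, was again the largest fall of a member and was not called.

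The largest rise after irradiation in P72, R72 and p53+/+ was that of a paralogue, Rps27l or Rpl3l, and 3 of the 5 paralogues fell in P72 at 4 h. In that comparison 19.5% of all genes were called down. Rpl7l1, a paralogue of Rpl7 that acts in assembly of the large subunit, fell in P72, R72 and p53+/+. Its levels in P72 were 2.11, 2.16, 2.19 and 2.41 at 0 h, 1.78, 1.82, 1.79 and 1.80 at 2 h, and 1.46, 1.49, 1.58 and 1.53 at 4 h, with no overlap between any of the times. In R72 it stood at 2.04, 2.10, 2.36 and 2.14, then 1.81, 1.69, 1.84 and 2.17, then 1.82, 1.68, 1.76 and 1.75, so that replicate 4 at 2 h lay in the untreated range. It fell by 0.42 (adjusted p = 0.00377) and 0.70 (adjusted p = 3.39e-06) in P72 and by 0.28 (adjusted p = 0.0471) and 0.41 (adjusted p = 0.00117) in R72 at 2 h and 4 h. In p53+/+ it fell by 0.57 (adjusted p = 0.0026), from 2.07 and 2.21 to 1.67 at 2 h and 1.47 at 4 h. In p53-/- it went from 2.07 and 2.10 to 1.98 and 1.77, a change of -0.21 (adjusted p = 0.531), and the responses did not differ by a called amount (-0.35, adjusted p = 0.236).

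Rpl22l1, the paralogue that can stand in for Rpl22, was the only member whose probes disagreed in the direction of a call. On the chosen probe its P72 levels were 5.03, 5.10, 5.26 and 5.35 at 0 h, 4.74, 4.89, 4.77 and 5.00 at 2 h, and 4.43, 4.53, 4.85 and 5.00 at 4 h. In R72 they were 5.07, 5.17, 5.23 and 5.08, then 4.73, 4.61, 4.50 and 4.34, then 4.66, 4.64, 4.70 and 4.67. Each irradiated array lay below each untreated array of its line. The level fell by 0.48 in P72 at 4 h (adjusted p = 0.00118) and by 0.59 (adjusted p = 0.00134) and 0.47 (adjusted p = 0.00186) in R72 at 2 h and 4 h. The change of -0.33 in P72 at 2 h was not called (adjusted p = 0.0522). The second probe, which was well above background on 27 of 32 arrays, gave 1.45, 1.39 and 1.11 in the 3 comparisons with a call. The chosen probe lies at chr3:28622984-28623043 and the second at chr3:28621328-28621387 (mm7, plus strand), so they do not read the same part of the gene.

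Rpl3l, the muscle form of Rpl3, was the only member with a change over 2-fold in P72 at 4 h, from levels far below the 75th percentile. Its P72 levels were -5.43, -4.43, -4.61 and -5.27 at 0 h, -5.18, -5.03, -4.50 and -4.64 at 2 h, and -3.49, -2.76, -2.50 and -2.75 at 4 h. In R72 they were -4.63, -4.79, -5.46 and -4.29, then -4.54, -4.26, -4.84 and -5.13, then -4.00, -3.34, -3.65 and -3.68. In both lines the 4 h arrays lay above all earlier ones. It rose by 2.06 ± 0.27 in P72 at 4 h (4.17-fold, adjusted p = 4.47e-06) and by 1.12 ± 0.27 in R72 (adjusted p = 0.0025), and the responses did not differ by a called amount (0.94, adjusted p = 0.83). The probe was not well above background on 3 arrays: replicate 1 at 2 h in each line and the p53+/+ array at 2 h, so no fold is given for p53+/+. The R72 rise was not called under quantile normalization (0.51), in the authors' deposited values (0.23) or after another background correction (0.15), and the neutrophil and epithelial markers above moved with time in the same samples. Rpl36al fell by 0.35 in P72 at 4 h (adjusted p = 0.023), and its change in R72 was -0.21 (adjusted p = 0.228), fitted without replicate 3 at 0 h, where the spot was flagged. Rps19bp1, which the name rule brought in, fell by 0.46 in P72 (adjusted p = 0.00136) and 0.43 in R72 (adjusted p = 0.0031) at 4 h and by 0.42 in p53+/+ (adjusted p = 0.043). Its P72 levels went from 2.76, 2.77, 3.02 and 3.07 to 2.36, 2.40, 2.47 and 2.56 at 4 h, and these groups did not overlap.

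Of the 16 members whose products are known to bind Mdm2, Rps27l was the only one called in either line at 4 h or in P72 at 2 h. In R72 at 2 h, Rpl6 and Rps25 of this list fell besides. The called share was 6.25% in P72 at 2 h and in both lines at 4 h, against 14.5%, 56.2% and 44.4% of all genes. In R72 at 2 h it was 18.8%, against 12.8%. Rpl5 and Rpl11, which carry 5S ribosomal RNA to Mdm2, were not called in any comparison. Rpl5 stood at 8.03, 8.31, 8.30 and 8.35 at 0 h, 8.03, 8.20, 8.17 and 8.12 at 2 h, and 7.92, 8.12, 8.18 and 8.16 at 4 h in P72, groups that overlapped. Its change was -0.12 and -0.16 in P72 and -0.19 and -0.06 in R72. Rpl11 changed by 0.05 and 0.25 in P72 and by -0.22 and 0.11 in R72. The changes of other Mdm2 binders were of the same size. At 2 h and 4 h, Rpl23 changed by 0.02 and 0.11 in P72 and by -0.13 and 0.06 in R72, and Rpl26, which can also bind the p53 messenger RNA, by -0.08 and -0.09 and by -0.22 and -0.08. Rps3 changed by -0.10 and -0.14 in P72 and by -0.28 and -0.08 in R72, and Rps7 by -0.04 and 0.09 and by -0.28 and 0.19. None of these was called. Mdm2 itself rose by 1.06 and 0.62 in P72 and by 0.85 and 0.67 in R72. Rps6, the S6 kinase substrate, changed by -0.06 and -0.12 in P72 and by -0.01 and -0.07 in R72 (none called).

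The stalk proteins Rplp0, Rplp1 and Rplp2 recruit translation factors to the large subunit. Rplp1 rose by 0.51 in P72 at 4 h (adjusted p = 0.0128), from 8.01, 8.60, 8.56 and 8.71 to 8.75, 9.05, 9.02 and 9.09, with no overlap. In R72 its change was 0.37 (adjusted p = 0.0774), and with median centring the P72 value was -0.10. Rplp2 changed by 0.05 in P72 and 0.08 in R72 at 4 h, and Rplp0 by -0.13 and -0.18 (none called). The probe the files list as Arbp, an older name of Rplp0, gave 0.41 in P72 (adjusted p = 0.025) and 0.46 in R72 (adjusted p = 0.0186) at 4 h, and 0.68 in p53+/+ (adjusted p = 0.0287). Its P72 levels were 7.73, 8.09, 8.15 and 8.32 at 0 h and 8.32, 8.74, 8.42 and 8.46 at 4 h, while the probe named Rplp0 went from 5.64, 5.71, 5.73 and 5.67 to 5.38, 5.58, 5.57 and 5.69. The probe listed under the current name was thus flat or lower where the one under the old name was higher.

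Where P72 and R72 were compared at the same time, 0 members were called by limma at 0, 2 or 4 h, against 0.9%, 1.27% and 1.25% of all genes (0.662% higher and 0.603% lower in P72 at 2 h). At an unadjusted p below 0.05, 1 member passed at 0 h, 20 at 2 h (19 of them higher in P72) and 3 at 4 h, against 9.53%, 16.9% and 13.5% of all genes. At 2 h, 67 of 82 members were higher in P72 on average, with a median difference of 0.16, against 0.04 for all genes, but the median was -0.00 after quantile normalization and -0.14 in the authors' deposited values. The lowest adjusted p at 2 h was that of Rpl11 (0.59, adjusted p = 0.0596), with levels of 7.73, 7.58, 7.55 and 8.04 in P72 and 7.08, 7.38, 7.05 and 7.04 in R72, which did not overlap. At 0 h Rpl11 stood at 7.31, 7.71, 7.91 and 7.76 in P72 and at 7.07, 7.27, 7.75 and 7.33 in R72, which did. Without R72 replicate 1 or replicate 2 at 2 h, 1 and 2 members were called at that time. The P72 response minus the R72 response called 0 members at 2 h and at 4 h (0.00487% and 0% of all genes); at an unadjusted p below 0.05, 1 and 2 members passed, against 4.56% and 5.66% of all genes.

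In p53+/+ thymocytes, 2 members rose (Rps27l and Rps19) and 2 fell (Rpl7l1 and Rps19bp1), or 4.88%, against 23.4% of all genes called (13.6% up and 9.83% down). Without the p53+/+ array at 4 h, 1 member was called. In p53-/- thymocytes limma called 0 members, against 1.06% of all genes, and 0 members passed an unadjusted p of 0.05, against 12.4% of all genes. Untreated p53+/+ and p53-/- differed in 0 members (0.715% of all genes, 0.355% higher and 0.36% lower in p53+/+), with 1 at an unadjusted p below 0.05. Between irradiated p53+/+ and p53-/-, 5 members were higher and 3 lower in p53+/+, against 21.6% of all genes called (13.4% higher and 8.22% lower). The higher ones were Rps27l by 1.12, Rps19 by 0.80, Rps27a by 0.69, Rps12 by 0.58 and Rpl3l, for which no fold is given. The lower ones were Rps19bp1 by 0.44, Rpsa by 0.43 and Rpl14 by 0.42. Of these, Rps27l and Rps19bp1 were called under each of the 4 scalings. Without the p53+/+ array at 4 h, 1 member was called, without the p53-/- array at 2 h 2, and without that at 4 h 5. The p53 arrays were scanned on a date of their own, and levels were not set against P72 or R72. The irradiated p53+/+ arrays lay on a different slide from the irradiated p53-/- arrays, so genotype and slide cannot be told apart among them. Each of these slides also held 1 untreated array of each genotype. The difference of the responses carries the same slide difference, and counts with a slide block are given below.

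How the genes behaved as a group depended on how the arrays were put on one scale. At the 75th percentile the median member change was -0.05 in P72 at 2 h, -0.04 at 4 h, -0.20 in R72 at 2 h and -0.07 at 4 h, against 0.05, 0.12, 0.04 and 0.11 for all genes. Relative to all genes the members lay at -0.11, -0.16, -0.24 and -0.19. After quantile normalization these values were -0.03, -0.02, -0.00 and -0.04, and in the authors' deposited value table -0.07, -0.15, 0.08 and -0.14. With median centring, under which the median of all genes itself moved to -0.49 in P72 and -0.36 in R72 at 4 h, 1 member rose and 76 fell in P72 and 2 rose and 72 fell in R72. At 4 h quantile normalization left 11 members up and 9 down for P72, and 6 against 8 for R72, and the authors' values left 4 against 15 and 2 against 11. At 2 h the splits were 1 up and 11 down (median centring), 2 and 2 (quantile) and 1 and 2 (authors' values) in P72, and 1 and 25, 2 and 5, and 1 and 3 in R72. In p53+/+ they were 1 up and 27 down, 2 and 1, and 1 and 2. The members called in the same direction under each of the 4 scalings were fewer: Rpl3l up and Rpl14, Rpl22, Rpl22l1, Rpl7l1 and Rps19bp1 down in P72 at 4 h, and Rps27l up and Rpl14, Rpl15, Rpl22, Rpl22l1, Rpl7l1, Rps19bp1 and Rps2 down in R72 at 4 h. At 2 h they were Rps27l, Rpl14 and Rpl7l1 in P72 and Rps27l, Rpl14 and Rpl22l1 in R72.

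**Figure D4:**
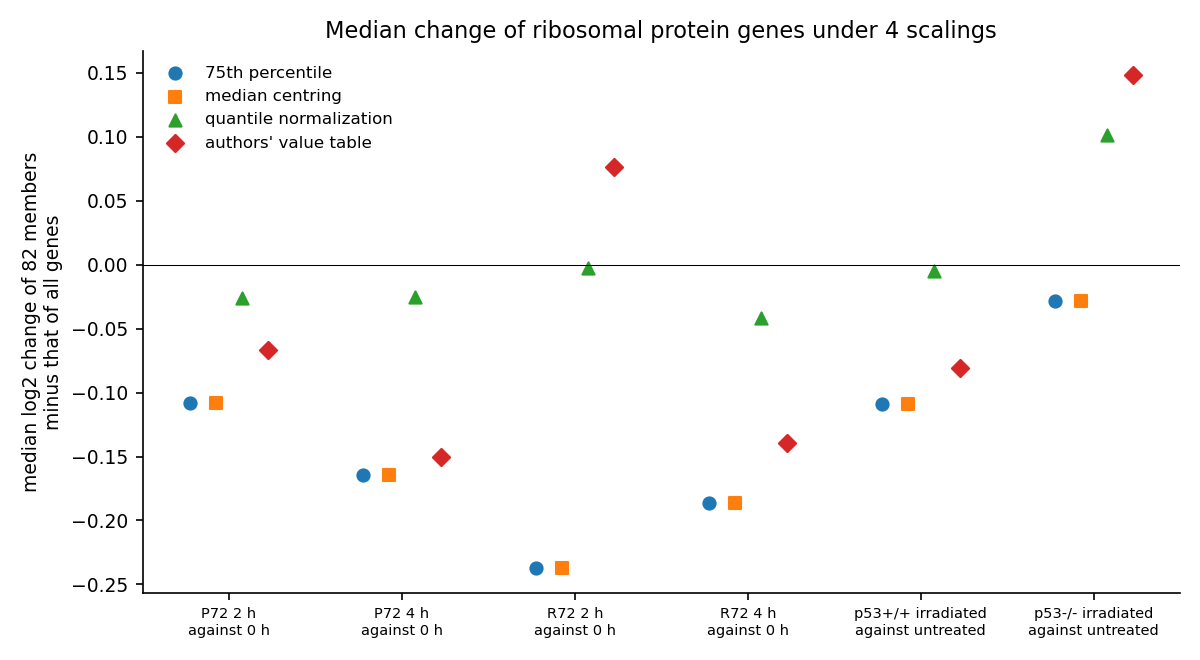
Median log2 change of the 82 ribosomal protein genes minus that of all genes (vertical axis) in 6 comparisons; each symbol is one way of scaling the arrays. The values lie between -0.24 and -0.00 in P72, R72 and p53+/+ except for 0.08 in R72 at 2 h with the authors' table, and in p53-/- they turn from -0.03 to 0.10 and 0.15 with the scaling.

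Of the genes that build ribosomes, a larger share was called down than of those that encode ribosomal proteins. Of 78 ribosome biogenesis factors, 0 rose and 38 fell in P72 at 2 h (median -0.33), 0 rose and 63 fell at 4 h (median -0.61), and in R72 37 fell at 2 h (median -0.32) and 62 at 4 h (median -0.57), with 0 up. Of all genes, 4.61% were called down at 2 h and 19.5% at 4 h in P72, and 6.35% and 14.7% in R72. Over the 4 scalings the count of biogenesis factors that fell at 4 h was 61 to 78 in P72 and 58 to 77 in R72. Gnl3, the nucleolar GTPase nucleostemin, stood at 1.05, 1.09, 1.16 and 1.40 at 0 h, 0.30, 0.42, 0.28 and 0.16 at 2 h, and -0.22, -0.23, -0.31 and -0.31 at 4 h in P72, with no overlap, a fall by 1.44 ± 0.10 (adjusted p = 5.89e-10). In R72 it fell by 1.25 at 4 h. Rrp12, an export and processing factor, fell by 1.35 in P72 and 1.81 in R72, Mrto4, a factor in stalk assembly, by 1.16 and 1.01, and Nolc1, a nucleolar phosphoprotein, by 1.08 in both. In p53+/+ 49 of the 78 fell and 0 rose (median -0.49), against 9.83% of all genes called down. In p53-/- 0 were called (median -0.02), with 5 at an unadjusted p below 0.05, against 12.4% of all genes. The difference of these responses was called for 20 of the 78, each of them lower in p53+/+, against 5.32% of all genes called (2.15% lower), among them Gnl3 (-1.42, adjusted p = 2.95e-05) and Mrto4 (-1.12, adjusted p = 0.00176).

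At 4 h, 56.2% of all genes were called in P72 (36.7% up and 19.5% down) and 44.4% in R72 (29.7% up and 14.7% down). Of 15 RNA polymerase I subunits and cofactors, which transcribe ribosomal RNA, 10 fell in P72 and 7 in R72 at 4 h, with 0 up. Polr1b fell by 1.19 and 1.12, and the largest subunit gene, Polr1a, by 0.70 and 0.68. Of 31 translation initiation factors, 21 fell and 1 rose in P72 and 19 fell and 1 rose in R72 at 4 h, with medians of -0.41 and -0.35. Eif5a fell by 1.06 and 0.92, and Eif2s1, the subunit phosphorylated in the integrated stress response, by 0.94 and 0.71. Elongation factors and other TOP genes, which share the tract with ribosomal protein genes, lay nearer to the members: 6 of 18 fell in each line at 4 h, 1 rose in P72 and 0 in R72, with medians of -0.19 and -0.20. Eef1g fell by 0.48 and 0.47, and Npm1, the nucleolar chaperone nucleophosmin, by 0.62 and 0.44. For this list the calls moved with the scaling, to 2 up and 3 down in P72 after quantile normalization. Of 78 mitochondrial ribosomal protein genes, 55 fell in P72 and 49 in R72 at 4 h and 0 rose, with medians of -0.34 and -0.31, and over the 4 scalings 41 to 78 fell in P72. Of 17 S6 kinase and mTOR pathway genes, 35.3% were called in each line at 4 h, a smaller share than of all genes. In P72 3 rose and 3 fell, and in R72 2 rose and 4 fell. They included Sesn2, a p53 target that restrains mTOR, which rose by 1.89 and 1.83, and Larp1, which binds TOP tracts, which fell by 0.53 and 0.40. In p53-/-, 0 genes of these lists were called, and at an unadjusted p below 0.05 there were 0 of 15, 3 of 31, 1 of 18, 6 of 78 and 2 of 17. Of all genes, 1.06% were called there and 12.4% passed the unadjusted threshold.

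**Figure D5:**
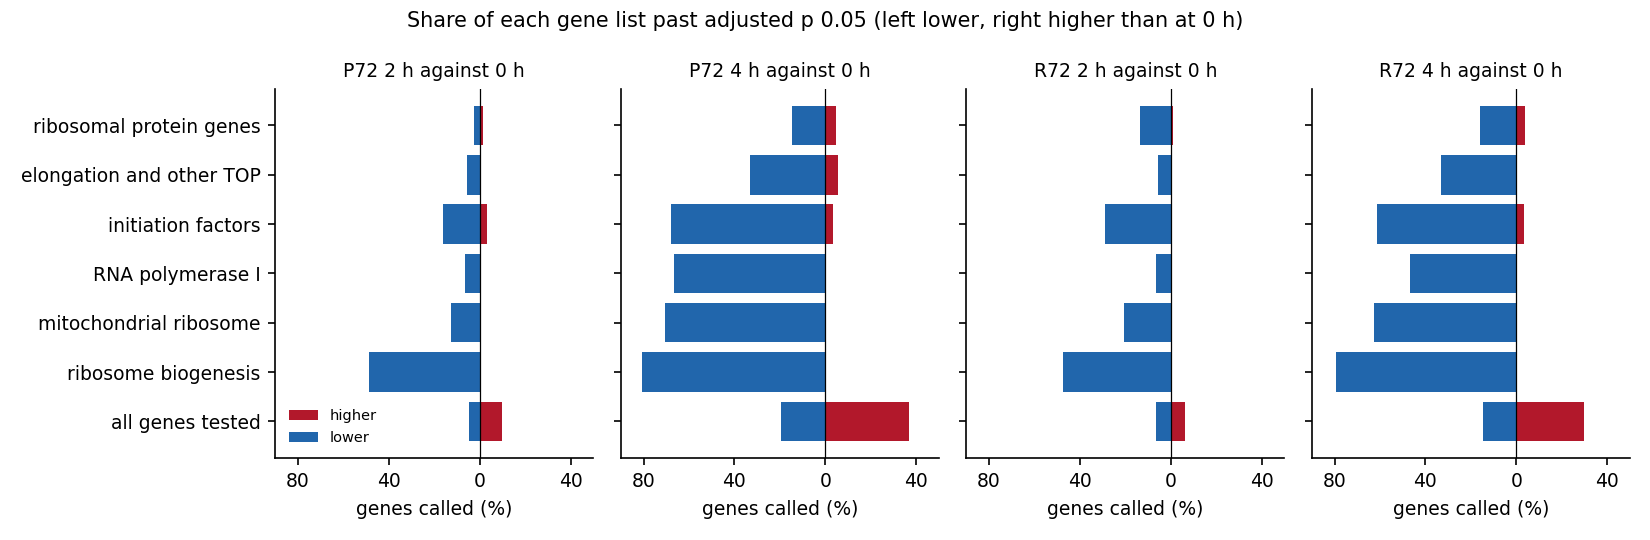
Percent of each gene list past adjusted p 0.05 in the comparisons of P72 and R72 at 2 h and 4 h with 0 h; red bars to the right are genes that rose, blue bars to the left genes that fell, and the lowest row holds all genes tested. At 4 h, 63 of 78 and 62 of 78 ribosome biogenesis factors fell in P72 and R72, against 12 and 13 of 82 ribosomal protein genes, while 36.7% and 29.7% of all genes rose and 19.5% and 14.7% fell.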

How the data were processed

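RNA from thymocytes was amplified, labelled with Cy3 and hybridised to single-colour arrays. The deposited scanner files, made with Agilent Feature Extraction 9.5.3 per the submitters' processing notes (9.5.3.1 and build mm7 per the file headers), hold a background-subtracted intensity per spot. The authors' deposited value table holds log2 values whose normalization is not given in the sources used here; its columns had medians near 6.2 and correlated with the log2 scanner intensity at about 0.97, and it served as an alternative. Of 41174 probes, those well above background on at least 4 of 32 arrays were kept. Values were log2 intensity minus the array's 75th percentile; outlier-flagged spots (0.223% of values) were left missing, a gene needed 28 measured arrays, and the brightest kept probe stood for a gene name. limma 3.58.1 (R 4.3.3; lmFit and eBayes) tested 20552 genes, on 24 arrays for P72 and R72 and on 32 for the p53 genotypes, with Benjamini-Hochberg adjustment over all genes. The spread of an array without a replicate was taken to be that of the other groups. The fits were tested on simulated data. Tables and plots used Python 3.11.15, pandas 2.3.3 and matplotlib 3.10.9.

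The members and lists were chosen with earlier results of these data known. Named in the text are Rps27l, Rps27, the Mdm2 binders Rpl5, Rpl11, Rpl23, Rpl26, Rps3 and Rps7, Rps6, Rps19, Rpl22, Rpl22l1, Rplp0 and Rpsa. Further named were up to 5 members that rose and 5 that fell most per comparison, up to 3 genes of each other list with the smallest p, reference genes, and members with disagreeing probes. The other called members were named after their values were seen. RefSeq tables gave current names and promoters. Arrays lay on 8 slides with 4 scan dates: replicates 1 and 2 of P72 and R72 on the first, 3 and 4 on later ones, the p53 genotypes on their own. Same-numbered arrays' deviations from their group means were correlated. Replicate numbers counted as pairing groups where r was over 0.1 in each of the 4 pairs. This held for P72 at 0 h and 4 h (0.119 to 0.194) and P72 at 2 h and 4 h (0.100 to 0.243). It also held for R72 at 2 h and 4 h (0.260 to 0.527) and P72 and R72 at 4 h (0.155 to 0.535). No other comparison met it. The cut of 0.1 is a set value, and P72 at 0 h and 2 h, with 0.088 to 0.198 and 2 of 4 pairs over it, fell just short of it. So did R72 at 0 h and 2 h, with 0.094 to 0.291 and 3 of 4 pairs over it. R72 at 0 h and 4 h also had 3 of 4 pairs over it, with 0.069 to 0.256. The main tests used no block. The number of arrays limits the precision.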

Additional observations from a re-analysis of the deposited data

Results flagged for a closer look

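In the check of single arrays for members named in the text, 3 of 90 groups of 4 held an array far from the rest, where chance alone gives about 1 in 20. Rpl5 was low on P72 replicate 1 at 0 h, at 8.03 with the nearest array at 8.30, and Rpl23 was low on the same array, at 6.60 with the nearest at 6.91. Rpl11 was high on R72 replicate 2 at 2 h, at 7.38 with the nearest at 7.08. The gap took 0.840, 0.922 and 0.870 of the group's range, against a critical value of 0.829. The Rps27l response to irradiation differed between p53+/+ and p53-/- by 1.13 ± 0.18 (SE; limma, adjusted p = 0.000379); it was higher on 2 of 2 irradiated p53+/+ arrays than on any p53-/- array.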

How the results depend on the processing

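Each result was computed again under other background corrections, scalings, filters, probe rules, blocks and subsets of arrays. Capped normexp, the scan date block and the fits within scan dates were chosen after seeing the data. Of the values for named members, 541 kept their direction and side of the threshold, 164 were no longer called and 8 turned; with single arrays left out, 306 kept and 86 were no longer called. Of the median changes, 167 of the alternatives lay within the spread between replicates and 37 moved further. With median centring, Rplp1 in P72 at 4 h turned to -0.10, Rps19 in P72 from 2 h to 4 h to -0.042 and Rps27 in R72 from 2 h to 4 h to -0.055. In the authors' values the last was -0.36 and Rplp1 in R72 from 2 h to 4 h was -0.040. With the mean of all probes of a name, Rpl22l1 was 0.49 in P72 at 4 h and 0.40 and 0.32 in R72 at 2 h and 4 h, since its second probe rose. The cause of the other shifts was not tested.

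The count of members called moved as follows. In P72 at 2 h it was 12 with median centring, 5 with the mean of probes or a slide block, 6 with a scan date block, and 1 within the first or the later scan dates. In P72 at 4 h it was 10 with normexp, 29 with capped normexp, 77 with median centring, 25 with a slide block and 6 within the later dates. In P72 from 2 h to 4 h it was 0 with normexp, 65 with median centring, 2 in the authors' values, without a filter or within the first date, and 1 within the later ones. In R72 at 2 h it was 1 with normexp, 26 with median centring, 7 with quantile normalization, 4 in the authors' values, 6 without a filter, and 1 and 6 within the first and later dates. In R72 at 4 h it was 3 with normexp, 74 with median centring, and 6 and 8 within the first and later dates. In R72 from 2 h to 4 h it was 0 with normexp, 28 with median centring, 4 with quantile normalization, 3 in the authors' values, 16 with a slide block, 22 with a scan date block, and 0 and 5 within the dates. In p53+/+ it was 1 with normexp and 28 with median centring, and in p53-/- 2 in the authors' values. The difference of these responses called 2 with capped normexp, median centring, quantile normalization, the mean of probes or a scan date block, and 3 in the authors' values. Between irradiated p53+/+ and p53-/- it was 1 with normexp, 19 with capped normexp, 29 with median centring, 14 in the authors' values, 2 with a slide block and 13 with a scan date block.

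Between P72 and R72 at 2 h, 1 member was called with the replicate block, with capped normexp, with probes well above background on all arrays, or with all 32 arrays in one fit. In the comparisons counted as paired by that cut, the block called 21 members in P72 at 4 h, where 4 rose and 12 fell without it. It called 4 from 2 h to 4 h in P72, 8 in R72 and 0 between P72 and R72 at 4 h. The Rps27 rise in R72 from 2 h to 4 h (0.30) was no longer called, and no other call of a named member was lost. Over the pairs of all groups, paired or not, the correlation of same-numbered arrays ranged from -0.272 to 0.535 (median 0.124), over 0.1 in 35 of 60 pairs. Leaving out 1 array at a time gave 3 to 4 members in P72 at 2 h, 12 to 17 at 4 h, 1 to 4 from 2 h to 4 h, 4 to 15, 7 to 20 and 2 to 10 in R72, 0 to 2 between P72 and R72 at 2 h, 1 to 4 in p53+/+, 1 to 2 in the difference of responses, 1 to 10 between irradiated p53+/+ and p53-/-, and 0 in the others.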
